A study of Rattus norvegicus with 6 samples.

Results

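Toll-like receptors are membrane proteins that sense microbial products and material released by damaged cells. All of them except Tlr3 pass the signal to the adaptor Myd88, which gathers the kinases Irak4 and Irak1, while Tlr3 and internalised Tlr4 use the adaptor Ticam1, and both branches end in NF-κB and interferon regulatory factors. In injured peripheral nerve these receptors are known from Schwann cells and macrophages, where they take part in the first response to degenerating axons and myelin. Described here are 10 genes chosen by name, the receptors Tlr2, Tlr3, Tlr4, Tlr5 and Tlr6, the co-receptor Cd14, the adaptors Myd88 and Ticam1, and the kinases Irak1 and Irak4. Of the 30957 genes counted, 9 carry one of these names, and Ticam1 was not analysed here.

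The 9 genes were followed in 6 RNA-seq libraries of sciatic nerve from Sprague Dawley rats, 3 crushed and 3 intact, and the intact nerves came from the uninjured side of crushed animals, so that no nerve of an unoperated rat was included. According to the methods the rats were adult males and the tissue was the proximal stump at 4 days postinjury (dpi), whereas the labels state neither age nor time. The design text places the lesion on the right, and the methods describe an incision on the right but name the left nerve as crushed. All values come from reads counted per Ensembl gene, with library totals between 24844371 and 27139360. Counts were scaled by library total and TMM factor to normalized CPM for comparisons between nerves, and FPKM, which also divides by gene length, was used wherever levels of different genes were set side by side. A gene was said to rise or fall when edgeR's quasi-likelihood test gave a Benjamini-Hochberg adjusted p under 0.05 over the 12393 genes tested, and the stricter limits of an absolute log2 fold change above 1 with an unadjusted p under 0.001 were read as well. The design text calls the 3 nerves of a group biological replicates, without saying which nerves share a rat.

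The labelled tissue was checked against marker genes, with limits that touch every result below. Of 14 Schwann cell markers 13 were in the table and 6 passed the expression filter, with a sum between 70.0 and 74.8 CPM in intact and between 66.9 and 67.8 CPM in crushed nerves, where Erbb3 fell. The myelin and Schwann cell genes Mbp and Sox10 had at most 1 count in any nerve. Of the same list, Pmp22 had between 821 and 968 counts and Prx between 590 and 690. Of 16 leukocyte markers 7 were listed at 0 counts in all nerves, among them Ptprc and Adgre1, and 3 passed the expression filter. The summed leukocyte markers reached between 2.45 and 3.86 CPM in intact nerves and between 3.57 and 4.11 CPM in crushed nerves, and none of those tested rose or fell by edgeR's test (0 at an unadjusted p under 0.05). Of 8 neutrophil and 8 lymphocyte markers 0 passed the filter, and their sums stayed at or below 0.322 and 0.301 CPM. Endothelial markers summed to between 11.8 and 13.3 CPM with 0 of 4 called by edgeR (1 at an unadjusted p under 0.05). Pericyte and smooth muscle markers summed to between 194.5 and 209.8 CPM in intact and between 157.7 and 160.5 CPM in crushed nerves, with 2 of 4 tested lower, and of 8 tested fibroblast and perineurial markers 2 fell, 1 of them past the stricter limits, with 6 at an unadjusted p under 0.05, 1 above 0 and a median log2 fold change of -0.21 (sums of 626.8 to 711.9 and 619.3 to 653.4 CPM). In the fibroblast and perineurial list, Slc2a1 (7743 to 9535), Thy1 (2431 to 3372) and Itgb4 (2824 to 3488) had the most counts. Col1a2, Dcn, Lum and Postn of that list were at 0. In contrast, 8 proliferation genes such as Mki67 summed to between 3442 and 3725 CPM over the 6 nerves, with 0 called by edgeR (1 at an unadjusted p under 0.05). Of all genes tested, 1.47% rose and 1.65% fell, 0.282% met the stricter limits and 16.2% had an edgeR unadjusted p under 0.05. These marker levels go against the labelled nerve tissue, and the libraries are called crushed and intact nerves as the labels name them. The part of cell composition in the results was not tested, and in bulk RNA fewer cells of a type cannot be told apart from less RNA per cell. A listing at 0 is not evidence of absence, since Hsp90aa1, a chaperone gene used by every cell, was also listed at 0, as were the matrix genes Col1a2 and Dcn, which leaves the counting of such genes in doubt.

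Promoters are shown for a receptor gene and for a gene of the downstream response, the first being the only one of the set with a match and the second a gene that rose. RefSeq promoter windows (GRCr8 assembly, 250 bases before to 50 after the annotated start) were found for 9 of the 10 genes and searched on both strands for the consensus NF-κB (kappaB) site, which 4.18% of all 33469 windows hold. Among the 9 windows only that of Tlr2 (chr2:171504508-171504807, minus strand) held a match, 2 overlapping sites from -206 to -196. The window of Nfkbia, the NF-κB inhibitor gene (chr6:78597023-78597322, minus strand), held 1 match from -31 to -22. Both are written 5′ to 3′ on the strand of the gene, with the matches in capitals.
Tlr2: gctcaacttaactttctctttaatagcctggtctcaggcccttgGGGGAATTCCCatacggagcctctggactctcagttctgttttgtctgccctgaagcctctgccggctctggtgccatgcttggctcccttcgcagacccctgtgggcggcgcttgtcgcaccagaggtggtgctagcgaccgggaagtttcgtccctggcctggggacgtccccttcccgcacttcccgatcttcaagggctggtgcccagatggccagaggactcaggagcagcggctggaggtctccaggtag
Nfkbia: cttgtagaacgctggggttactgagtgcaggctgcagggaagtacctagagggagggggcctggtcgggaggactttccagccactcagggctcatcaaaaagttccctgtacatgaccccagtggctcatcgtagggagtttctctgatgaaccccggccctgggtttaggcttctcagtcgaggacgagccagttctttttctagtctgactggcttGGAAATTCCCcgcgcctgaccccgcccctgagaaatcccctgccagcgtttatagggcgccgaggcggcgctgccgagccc

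Of the tested pathway genes with a window, 8 of 12 that rose and 0 of 2 that fell held a match. Of those not called 8 of 43 held a match, among them Irf3, Irak3 and Cxcl10. The pathway lists were written with earlier results of these data known, so these shares cannot be separated from the choice of genes. Whether NF-κB drove the rises was not tested. The first matched bases of 3 genes that rose are given as read on the strand of the gene.
Cxcl1: GGGAATTTCC
Traf3: GGGGATTTCC
Irf1: GGGGAATCCC
Windows were found for 10 of the 12 tested genes that Toll-like receptor signalling is known to induce, and 5 of the 10 held a match. An interferon-type string, 2 GAAA repeats separated by 2 bases, occurred in 3.92% of all windows and, among the receptors and adaptors, in that of Myd88 alone, from -16 to -7. A match is a description of the letters in the window and no measure of binding. The limit from the choice of genes holds for the share among the induced genes too.

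All 9 genes were detected and passed the expression filter, at very different levels. Irak1 was the highest with a mean of 59.8 FPKM over the 6 nerves (range 57.6 to 65.3), above 87.6% of the genes tested. Myd88 followed with 17.9 FPKM (16.1 to 19.5) and Tlr5, the receptor for bacterial flagellin, with 16.4 FPKM (15.7 to 17.0), and the ranges of these 2 genes overlapped. A second tier held Tlr4, which senses lipopolysaccharide, at 2.89 FPKM (2.54 to 3.33), Tlr3, the endosomal sensor of double-stranded RNA, at 2.68 FPKM (2.50 to 3.03), and Irak4 at 2.47 FPKM (2.08 to 2.78). The ranges of neighbours in this tier overlapped, so their order is not separated by the spread between nerves. Below them came Cd14, the lipopolysaccharide co-receptor, at 1.404 FPKM (1.06 to 1.83), Tlr2, the lipopeptide receptor, at 0.779 FPKM (0.585 to 0.991), and its partner Tlr6 at 0.429 FPKM (0.338 to 0.540), with no overlap between neighbours. Tlr6 stood above only 5.35% of the genes tested.

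**Figure D1:**
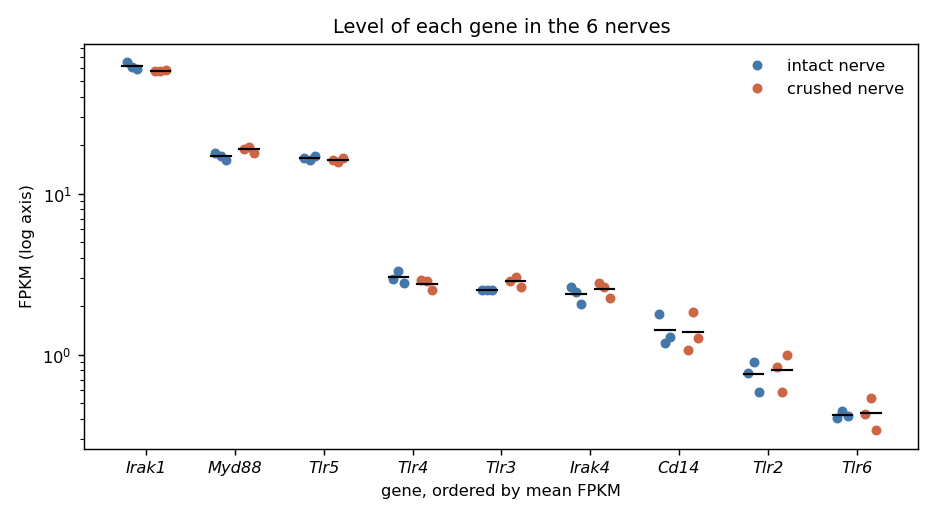
FPKM (log axis) of each of the 9 genes in each nerve, intact in blue and crushed in orange, with a black line at each group mean. Irak1 lies near 60 FPKM and Tlr6 near 0.4, and the crushed points fall on or next to the intact points of the same gene.

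Per length, Tlr5 supplied most of the Toll-like receptor signal that was counted. Tlr1 is not part of the sum, and Tlr7, Tlr8, Tlr11 and Tlr12 enter it at 0, which is not evidence of their absence. Of the summed FPKM of the 12 Tlr genes in the table, Tlr5 held between 68.0% and 71.1% in intact nerves and between 68.7% and 71.3% in crushed nerves. Tlr3 and Tlr4 together held between 22.1% and 25.7% over the 6 nerves. The sum itself was between 23.8 and 23.9 FPKM in intact and between 22.9 and 23.6 FPKM in crushed nerves, so that the groups did not overlap by a narrow gap. This sum was not scaled by TMM factor. In normalized CPM, 23% of all genes tested had groups that did not overlap, while the groups of Tlr5 overlapped. The gene length implied by the FPKM of Tlr5 was 4255 bp, equal to its whole locus on chromosome 13 (build Rnor_6.0, as for all gene loci here) from 101381510 to 101385764, and no other gene of the table overlaps that locus.

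None of the 9 genes rose or fell after the crush. With edgeR 0 of 9 had an adjusted p under 0.05, against 3.12% of all genes tested (1.47% higher and 1.65% lower), and 0 of 9 met the stricter limits, against 0.282%. DESeq2 and limma also called 0 of 9, and 1 of the 9, Irak1, had an unadjusted p under 0.05 with edgeR, against 16.2% of all genes. The log2 fold changes were above 0 in 5 genes and below 0 in 4, with a median of 0.04, beside -0.0017 for all genes tested. Their median absolute size was 0.086, near the 0.082 of all genes tested. In all 9 the 95% interval of the log2 fold change lay inside -1 to 1, and the widest bounds over the 9 genes were 0.675-fold and 1.49-fold, so that a doubling lay outside the interval of each gene. For the 3 best measured genes, Irak1, Tlr5 and Myd88, the standard errors were between 0.0457 and 0.0618.

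Among the receptors of the set, Tlr3 had the largest absolute log2 fold change with the main test, an order that changed when single nerves were left out. It had 13.6, 13.4 and 13.4 CPM in intact nerves 1, 2 and 3 and 15.2, 16.1 and 14.0 CPM in crushed nerves 1, 2 and 3, so every crushed nerve lay above every intact nerve. The log2 fold change was 0.16 (95% interval -0.02 to 0.34, edgeR adjusted p = 0.362), and the exact permutation test gave 0.1, the smallest p that 3 nerves against 3 allow. Groups that do not overlap were found in 23% of all genes tested, and in 2 of these 9, Tlr3 (10.8% of all genes lay higher without overlap) and Irak1 (12.2% lower). Tlr3 lies on chromosome 16 from 50016857 to 50031214.

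Tlr4 had 9.92, 11.2 and 9.32 CPM in the intact nerves and 9.67, 9.47 and 8.42 CPM in the crushed nerves. Crushed nerve 3 was the lowest and intact nerve 2 the highest, and the other values of the groups overlapped. Its log2 fold change was -0.14 (95% interval -0.37 to 0.08, edgeR adjusted p = 0.534). The locus lies on chromosome 5 from 82587420 to 82601052.

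For Tlr5 the values were 71.6, 69.4 and 72.6 CPM in intact and 68.5, 66.6 and 70.0 CPM in crushed nerves. The crushed values lay lower on average but crushed nerve 3 exceeded intact nerve 2. This gene had the narrowest interval of the receptors, with a log2 fold change of -0.06 (95% interval -0.16 to 0.04, edgeR adjusted p = 0.582).

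Tlr2, the only receptor of the set with the kappaB match shown above, had few reads. Its counts were 51, 62 and 38 in intact nerves and 59, 41 and 64 in crushed nerves, or 2.02, 2.35 and 1.53 CPM against 2.16, 1.51 and 2.55 CPM. The groups covered almost the same range, and the lowest and the highest value were both from crushed nerves. The log2 fold change was 0.07 with a wide interval (95% interval -0.44 to 0.58, edgeR adjusted p = 0.917), and it turned to -0.08 without intact nerve 3 and to -0.10 without crushed nerve 3. Tlr2 lies on chromosome 2 from 182840727 to 182846061.

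Tlr6, which pairs with Tlr2, had 73, 84 and 74 counts in intact and 83, 104 and 60 counts in crushed nerves. After normalization this was 2.89, 3.18 and 2.99 CPM against 3.04, 3.83 and 2.39 CPM, and the crushed nerves lay on both sides of the intact ones. For Tlr6 the log2 fold change was 0.04 (95% interval -0.36 to 0.43, edgeR adjusted p = 0.945), and it turned to -0.15 without crushed nerve 2. Tlr6 lies on chromosome 14 from 45033309 to 45046446, and Tlr10 begins 16216 bp away. These receptors are close paralogs together with Tlr1, which was not analysed here, so reads could be split between them and the values are uncertain to that extent.

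The counts of Cd14 were 78, 53 and 54 in intact nerves and 49, 84 and 54 in crushed nerves, or 3.08, 2.01 and 2.18 CPM against 1.79, 3.09 and 2.16 CPM. Each group held 1 high library, intact nerve 1 and crushed nerve 2. The log2 fold change of -0.04 (95% interval -0.57 to 0.48, edgeR adjusted p = 0.951) had the widest interval of all 9 genes and became 0.17 without intact nerve 1, 0.12 without crushed nerve 1 and -0.30 without crushed nerve 2. Cd14 is used as a marker of monocytes and macrophages, whose own markers were at the levels given above.

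Of the adaptors and kinases, Myd88 had 44.6, 42.2 and 39.6 CPM in intact and 46.1, 47.8 and 43.9 CPM in crushed nerves. Only intact nerve 1 reached the range of the crushed nerves. For Myd88 the log2 fold change was 0.12 (95% interval -0.01 to 0.26, edgeR adjusted p = 0.362). Myd88 lies on chromosome 8 from 128022473 to 128026841.

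Irak1, the kinase that carries the signal from the receptor complex to Traf6, had 206, 191 and 185 CPM in intact and 179, 179.6 and 181 CPM in crushed nerves. All crushed nerves lay below all intact nerves, and the crushed nerves were close to each other while intact nerve 1 stood above the rest. The log2 fold change was -0.11 (95% interval -0.21 to -0.01, edgeR adjusted p = 0.265), and without intact nerve 1 it was -0.06. A small RNA gene, SNORA61, lies inside the Irak1 locus on chromosome X (156716604 to 156725977), and the counting rule for overlapping genes is not given in the sources used here.

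Irak4, the kinase that phosphorylates Irak1, had 10.6, 9.82 and 8.32 CPM in intact and 11.02, 10.5 and 8.90 CPM in crushed nerves. Replicate 3 was the lowest of each group and the groups overlapped. Its fitted log2 fold change was 0.09 (95% interval -0.17 to 0.34, edgeR adjusted p = 0.771). The locus spans 135803698 to 135832652 on chromosome 7.

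Ratios within a nerve do not depend on the scaling between libraries. The FPKM ratio of Irak1 to Myd88 was between 3.56 and 3.68 in intact nerves and between 2.95 and 3.24 in crushed nerves, without overlap (chosen after the values were seen). Irak1 exceeded Irak4 by a ratio between 24.9 and 28.5 in intact and between 20.7 and 26.0 in crushed nerves, where the groups overlapped. The ratio of Tlr4 to its co-receptor Cd14 lay between 1.55 and 2.83 over the 6 nerves, again with overlap.

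Only 1 gene of the remaining family could be tested. Tlr7, Tlr8, Tlr11 and Tlr12 were listed at 0 in every nerve, where 3 counts, the floor used here, correspond to between 0.1105 and 0.1208 CPM. Tlr9 and Tlr13 had at most 5 and 3 counts. The counts of Tlr10 were 28, 27 and 36 in intact and 19, 10 and 8 in crushed nerves, so all crushed nerves lay below all intact nerves. It fell by 1.35 on the log2 scale (standard error 0.320, edgeR adjusted p = 0.0494), close to the threshold and short of the stricter limits. This call was lost in 11 of 12 alternatives, in which the adjusted p reached 0.200, and held without crushed nerve 1 (adjusted p = 0.0362).

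Genes that bring the receptors to the membrane or modulate their complex showed no calls. Of 4 tested partners and trafficking factors 0 rose or fell with edgeR, DESeq2 or limma, where edgeR called 3.12% of all genes tested. With edgeR 0 of the 4 had an unadjusted p under 0.05, against 16.2% of all genes. Unc93b1, which escorts Tlr3 to endosomes, had a log2 fold change of 0.13 (edgeR adjusted p = 0.423), and Hsp90b1, the chaperone of the receptors, one of -0.02 (adjusted p = 0.825). Ly96, the partner of Tlr4, was not analysed here. Of 7 tested adaptors and inhibitors 0 were called by these tests. With edgeR 2 of the 7 had an unadjusted p under 0.05, against 16.2% of all genes. Tmed7 had a log2 fold change of 0.14 (edgeR adjusted p = 0.127), with every crushed nerve above every intact nerve. Peli3 had one of -0.58 (edgeR adjusted p = 0.161), with every crushed nerve below every intact nerve. The decoy kinase Irak3 (log2 fold change -0.02) and the bridging adaptor Tirap (0.11) had edgeR adjusted p-values of 0.899 and 0.826. Traf6, the ubiquitin ligase that Irak1 activates, had a log2 fold change of -0.02 (edgeR adjusted p = 0.915).

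Some genes listed downstream of the receptors were called, in lists written with earlier results of these data known. Whether these calls reflect Toll-like receptor signalling was not tested. Of 13 tested downstream kinases and ligases 1 rose, Traf3, an adaptor that also restrains the non-canonical NF-κB pathway, from 53.5 ± 2.17 to 70.4 ± 2.91 CPM (SD, n = 3 nerves each, edgeR adjusted p = 0.00211). The median of that list was 0.03, and 1.47% of all genes tested rose. Of 12 tested transcription factors 4 rose and 0 fell, against 1.47% and 1.65% of all genes tested, and the median log2 fold change was 0.16. Without crushed nerve 1 the count was 3 higher and 1 lower. Atf3, a stress-induced factor of this list (chosen after its values were seen), had 168, 159 and 183 counts in intact and 198, 46 and 33 in crushed nerves, so that crushed nerve 1 stood apart from the other crushed nerves, and its log2 fold change was -0.95 (edgeR adjusted p = 0.341). Relb, the partner of the non-canonical subunit, had 117, 114 and 97 counts in intact and 410, 443 and 376 in crushed nerves, and it rose by 1.85 on the log2 scale (95% interval 1.63 to 2.07, edgeR adjusted p = 2.89e-06). Nfkb2, which encodes that subunit, rose by 0.75 and Irf1, an interferon regulatory factor, by 0.42 on the log2 scale (edgeR adjusted p = 2.89e-06 and 0.000158). For Irf3, the factor at the end of the Ticam1 branch, the value was -0.06 (edgeR adjusted p = 0.6503).

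Of 12 tested genes that the receptors are known to induce, 7 rose and 0 fell, and the median of their log2 fold changes was 0.66, while 1.47% of all genes tested rose. Nfkbia, Cxcl1, a neutrophil-attracting chemokine, and Ccl2 met the stricter limits. Cxcl1 had 472, 566 and 485 counts in intact and 1455, 1395 and 1541 in crushed nerves, and it rose by 1.48 on the log2 scale (standard error 0.0824, edgeR adjusted p = 3.19e-06). Tnfaip3, the ubiquitin-editing feedback inhibitor of this pathway, rose from 18.2 ± 0.9502 to 35.6 ± 1.23 CPM (SD, n = 3 nerves each, edgeR adjusted p = 1.95e-05). Within a nerve the FPKM ratio of Nfkbia to Myd88 was between 1.17 and 1.19 in intact nerves and between 3.25 and 3.58 in crushed nerves. With Nfkbia named because it rose and Myd88 not called, this ratio repeats the Nfkbia call and is no separate result. Il1b, Ifnb1 and Il12b, classical products of receptor activation in macrophages, were listed at 0, and Il6 had at most 3 counts. These genes also respond to other receptors, and the list was written with earlier results of these data known.

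**Figure D2:**
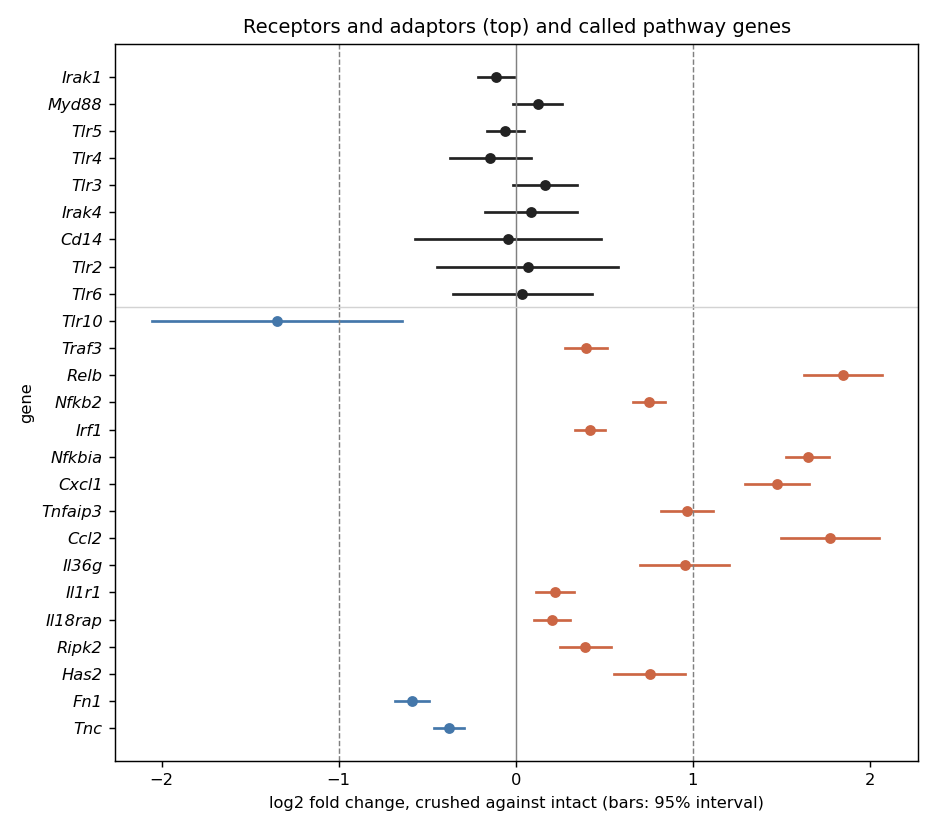
Log2 fold change, crushed against intact (points), with its 95% interval (bars), for the 9 receptors and adaptors in black above the grey line and for the pathway genes with an adjusted p under 0.05 that the naming rule chose, orange where higher and blue where lower. Every black interval lies inside the dashed lines at -1 and 1, whereas Relb, Nfkbia, Cxcl1 and Ccl2 lie beyond 1.

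Receptors of the IL-1 family share the Myd88 and IRAK proteins with the Toll-like receptors. Of 9 tested genes of this family 3 rose and 0 fell, against 1.47% and 1.65% of all genes tested, and the median log2 fold change was 0.12. With limma, with the replicate block, without intact nerve 2 or without any 1 crushed nerve, the count was 1. Il36g, a ligand of the family, had 165, 145 and 161 counts in intact and 352, 286 and 312 in crushed nerves, and rose by 0.95 on the log2 scale (standard error 0.114, edgeR adjusted p = 0.000918). The receptor chains Il1r1 and Il18rap rose by 0.22 and 0.20 on the log2 scale (edgeR adjusted p = 0.0374 and 0.0427), and these calls were lost in 8 and 9 of 12 alternatives, with adjusted p-values up to 0.161 for both.

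Among 11 tested sensors outside the Toll-like family 1 rose and 0 fell, against 1.47% and 1.65% of all genes tested. The gene that rose was Ripk2, the kinase of the Nod1 and Nod2 sensors, by 0.39 on the log2 scale (standard error 0.0652, edgeR adjusted p = 0.00831). It was no longer called without crushed nerve 2 (adjusted p = 0.0550). Nod2, Trem1, Trem2, Clec4e, Clec7a and Nlrc4, sensors of myeloid cells for the most part, were listed at 0. Of 10 tested genes for damage signals that act on Toll-like receptors, 1 rose and 2 fell, beside the same shares of all genes, with a median log2 fold change of -0.10. Has2, which makes hyaluronan, had 191, 178 and 189 counts in intact and 334, 339 and 309 in crushed nerves (log2 fold change 0.76, edgeR adjusted p = 0.000918). Fibronectin (Fn1) fell from 1253 ± 70.4 to 835 ± 12.5 CPM and tenascin C (Tnc) from 514 ± 12.2 to 396 ± 10.6 CPM (SD, n = 3 nerves each, edgeR adjusted p = 3.52e-05 and 0.000319). Both matrix proteins are known as Tlr4 ligands. S100a9 was listed at 0, and S100a8 had at most 4 counts.

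**Figure D3:**
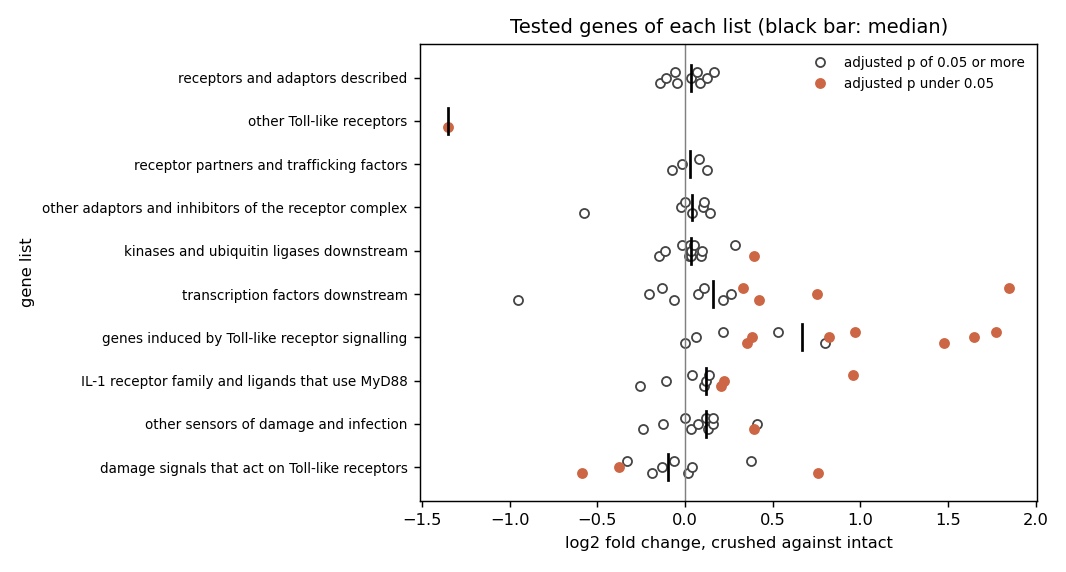
Log2 fold change, crushed against intact, of the tested genes of each list (rows), filled where the adjusted p was under 0.05, with a black bar at the list median. The 9 receptors and adaptors cluster around 0 with a median of 0.04, and the induced genes spread to the right with a median of 0.66.

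In 12 alternative analyses the 9 genes gave 108 values, of which 0 had an adjusted p under 0.05. Tlr3 stayed between 0.12 and 0.21, Myd88 between 0.08 and 0.17, Irak1 between -0.14 and -0.06, Tlr4 between -0.20 and -0.06 and Tlr5 between -0.08 and -0.04 on the log2 scale. For Tlr2, Tlr6, Cd14 and Irak4 the sign changed in 7 of the values, in each case when 1 nerve was left out.

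**Figure D4:**
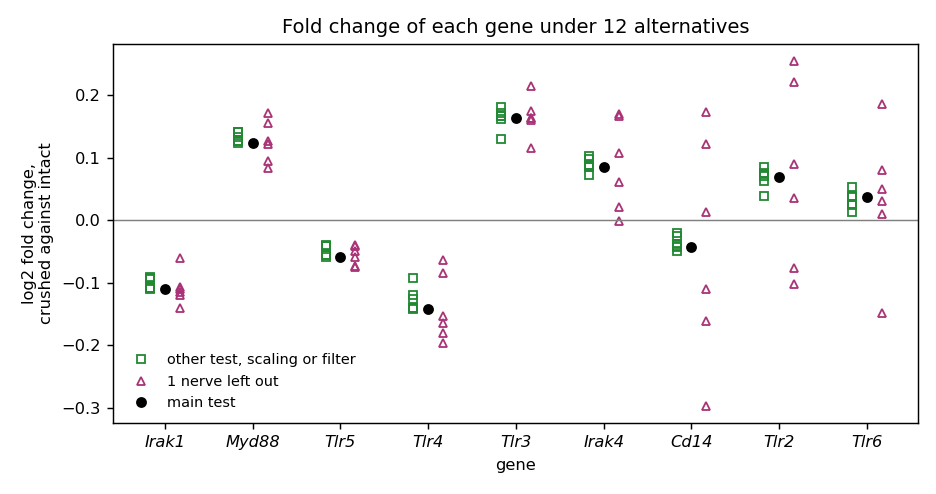
Log2 fold change, crushed against intact, of each gene with the main test (black), with another test, scaling or filter (green squares) and with 1 nerve left out (purple triangles). The values of Irak1, Myd88, Tlr5, Tlr4 and Tlr3 stay on one side of 0, and those of Irak4, Cd14, Tlr2 and Tlr6 cross it.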

How the data were processed

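RNA from 3 crushed and 3 intact sciatic nerves was sequenced. The authors deposited 1 table with raw counts per Ensembl gene and FPKM values computed from them, and the submitters' processing notes name HISAT2 (no version), StringTie 1.3.0 and the build Rnor_6.0, to which the coordinates of gene loci are credited. The methods describe rRNA removal and RNase R digestion, which the labels do not mention. Whether the digestion affected the FPKM levels set side by side here was not tested. The counting program, strand setting and annotation release are not given in the sources used here. The 12 value columns were matched to nerves by sample title, and 0 other value columns were present.

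Counts were tested with edgeR 4.0.16 (R 4.3.3), using TMM factors, the expression filter and the quasi-likelihood test, two-sided, over all 6 nerves without a replicate block. Of 30957 genes, 17425 had a count and 12393 were tested. Standard errors and 95% intervals came from the test statistic. Genes under the filter are given as counts. The members, gene lists and tests were chosen with earlier results of these data known. The genes named are the members and, from each pathway list, up to 3 higher and 3 lower with the smallest p among those with an adjusted p under 0.05, and any past the stricter limits. Other genes named, with their values or as listed at 0 or low, were chosen after their values were seen. Lists were described by counts and medians. Alternatives were DESeq2 1.42.0, total-count scaling, no filter, limma 3.58.1 on log2(FPKM + 0.1) or log2(FPKM + 1), the replicate block and each nerve left out. The test was checked on simulated data for 12310 genes, in which 94 of 95 genes changed by 1.5 and 82 of 99 changed by 0.75 on the log2 scale were called, with 12 of 12116 unchanged genes. Replicates differed by more than sampling noise (chi-square 3.38 to 12.4 times its degrees of freedom). Floors cover counting error only.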

Additional observations from a re-analysis of the deposited data

How the results depend on the processing

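The 9 receptors and adaptors gave 0 calls in every alternative run, by adjusted p (also at 0.01 with the main test) and by the stricter limits. Leaving out 1 nerve moved the log2 fold change of Tlr2 between -0.10 and 0.25, Tlr6 between -0.15 and 0.19, Cd14 between -0.30 and 0.17 and Irak4 between -0.0019 and 0.17. The sign changed for Tlr2 without intact nerve 3 or crushed nerve 3, for Tlr6 without crushed nerve 2, for Cd14 without intact nerve 1, crushed nerve 1 or crushed nerve 3, and for Irak4 without intact nerve 3. The cause was not tested, and fewer samples give wider errors.

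Over all genes, 387 had an adjusted p under 0.05 (182 higher, 205 lower), 242 (156 higher, 86 lower) with limma on log2(FPKM + 0.1) and 256 (162 higher, 94 lower) with log2(FPKM + 1). Leaving out 1 nerve gave from 179 to 392 genes (100 to 218 higher, 75 to 174 lower), with 251 without intact nerve 2 and 179, 183 and 211 without crushed nerves 1, 2 and 3. The stricter limits gave 35 genes (27 higher, 8 lower), from 27 to 35 with 1 nerve left out (23 to 32 higher, 3 to 10 lower, with 3 without intact nerve 1 or 2). With log2(FPKM + 1) they gave 14 genes (14 higher, 0 lower), and the number lower was 5 with DESeq2, 5 with the replicate block and 2 with log2(FPKM + 0.1).

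The other Toll-like receptors, with 1 call (Tlr10), had 0 with DESeq2, total-count scaling, no filter, either limma setting and the replicate block, and 0 to 1 with 1 nerve left out. The IL-1 family went from 3 calls to 1 with either limma setting and the replicate block, and to between 1 and 2 with 1 nerve left out (1 without intact nerve 2 or any 1 crushed nerve). The other sensors had 0 to 1. The remaining lists stayed within 1.5 times their counts.

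With the replicate number as a block (paired analysis), 146 genes were higher and 154 lower at an adjusted p under 0.05, with 284 of them among the 387. The labels do not say that a number marks a rat, and same-numbered nerves had correlations of deviations between -0.0148 and 0.0756. The widest intervals were those of Tlr2 and Cd14, which had between 38 and 84 counts per nerve, and how far depth or the spread between nerves sets them was not tested.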
